A study of Mus musculus with 6 samples.

Results

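Aminoacyl-tRNA synthetases load each amino acid onto its tRNA, the step that ties the genetic code to protein synthesis. The analysis followed their genes, listed by name as 20 cytosolic and 16 mitochondrial symbols, in livers of SRSF3HKO mice, in which the splicing factor gene Srsf3 is knocked out in hepatocytes, and in livers of wild-type (WT) mice. A gene was measured through the probe sets that the array annotation assigned to that symbol and to no other. Of the 36 listed genes, 33 had such probe sets, 18 cytosolic and 15 mitochondrial, out of 16277 genes in all. They were covered by 675 probe sets. Dars, Eprs and Cars2 were not analysed here.

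Most cells hold separate nuclear genes for the cytosolic and the mitochondrial enzyme of an amino acid, and the mitochondrial products are imported to serve translation of the few proteins that the mitochondrial genome encodes. Several cytosolic synthetases sit together in a multi-synthetase complex held by scaffold proteins, while others act alone. When amino acids run short or the endoplasmic reticulum is under stress, kinases that phosphorylate eIF2alpha raise translation of the transcription factor ATF4, whose known targets include Asns and a number of cytosolic synthetase genes. Liver makes most plasma proteins and so uses these enzymes heavily.

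Total RNA came from untreated livers of mice of 1 month, 3 arrays from SRSF3HKO and 3 from WT mice, and was hybridised to Affymetrix exon arrays, on which a gene is read by a number of probe sets. The labels describe the controls as wild-type littermates of the same age. The promoter that drives the deletion in hepatocytes is not given in the sources used here. The labels speak of 3 SRSF3HKO mice and leave unsaid whether the WT arrays are of different mice. The p-values thus measure no more than the spread between these arrays. In whole liver, fewer cells of a type and less RNA per cell cannot be told apart.

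Levels below are log2(intensity + 16), the level of a gene is the median over its probe sets, and every change is SRSF3HKO minus WT. A gene is said to have risen or fallen only where limma gave an adjusted p under 0.05, with Benjamini-Hochberg adjustment over all 11711 genes tested. All 33 synthetase genes lay above the detection floor of 5.35. Intensities of different genes are not comparable on an array, so no level is set against that of another gene.

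Median intensity was 75.3 to 89.6 on the 6 arrays, whose number limits the precision. Srsf3 itself had levels of 10.30, 9.10 and 9.78 in SRSF3HKO, against 9.79, 9.24 and 9.35 in WT (limma adjusted p = 0.625), with a change of 0.26 that turned to -0.022 without SRSF3HKO replicate 1. The deleted stretch is not given in the labels, so this gene level does not check them. The 5 measured of 8 hepatocyte markers were bright on every array. Their summed intensities were 55204 to 60819 in SRSF3HKO and 66160 to 66961 in WT. The 5 cholangiocyte markers summed to 828 to 2982 in SRSF3HKO and 494 to 704 in WT. Of these 5, 4 had a positive and 1 a negative change, and none passed. Spp1 carried most of the sum on each SRSF3HKO array and was the only one of them free of overlap. It stood at 11.41, 9.30 and 9.25 in SRSF3HKO, against 8.68, 8.34 and 8.25 in WT (limma adjusted p = 0.0932). The 5 macrophage markers summed to 1490 to 8191 in SRSF3HKO and 1360 to 1615 in WT, with SRSF3HKO replicate 1 the highest. Of these genes the macrophage receptor Marco rose, at 11.15, 8.43 and 7.81 in SRSF3HKO, against 6.399, 6.26 and 6.37 in WT (limma adjusted p = 0.0450), with a change of 2.78 that was 1.77 without replicate 1 (0.00577). Cd68 was also higher on every SRSF3HKO array (change 1.41, limma adjusted p = 0.0793), while Adgre1 stood at 9.77, 6.74 and 7.20 in SRSF3HKO, against 7.63, 7.58 and 7.68 in WT. Among the other marker lists 3 genes passed, all lower: Fga, a fibrinogen gene of hepatocytes, with a change of -0.88 (limma adjusted p = 0.0429), Kdr, a receptor gene of endothelium, with -0.87 (0.0452), and Alas2, a heme synthesis gene of erythroid cells, with -2.35 (0.0228). Each of these 4 marker calls ended when any 1 WT array was left out (limma adjusted p 0.0529 to 0.162); over all 18 alternatives the calls of Marco, Fga, Kdr and Alas2 ended in 9, 8, 7 and 3. Y-linked signal was present on SRSF3HKO replicate 3 and on WT replicates 1 and 2, and absent on the other 3 arrays. The part that these differences had in the results below was not tested, and values without SRSF3HKO replicate 1 and values within arrays of like Y-linked signal are given beside the genes that changed.

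Cytosolic synthetase genes had mostly positive changes in SRSF3HKO livers, several of them close to 0, and mitochondrial ones mostly negative changes. Gars, Sars and Farsa, for glycine, serine and phenylalanine, rose by 2.18-fold, 2.06-fold and 1.66-fold, and no listed synthetase gene fell at the chosen threshold. Thus 3 of 18 cytosolic genes rose, a share of 16.7%, against a background of 6.85% of all genes tested. Gars and Kars also supply the mitochondrial enzyme, and are counted as cytosolic in all counts, medians and gaps given here. None of the 33 fell, where the background was 5.03% of all genes. Tarsl2, a paralogue of Tars that is not among the listed genes, did fall and is described further on. Of the 15 mitochondrial genes none passed limma's test in either direction, while 1 was higher (6.67%) and 2 were lower (13.3%) at an unadjusted p under 0.05, near or below the 17.6% and 11.4% of all genes. The cytosolic count of 3 became 1, 0 and 0 when WT replicate 1, 2 or 3 was left out, 4 when SRSF3HKO replicate 2 was, and 1 with a covariate for Y-linked signal; over all genes those counts shift as well.

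The median change was 0.18 over the 18 cytosolic genes and -0.31 over the 15 mitochondrial genes, against 0.08 over all genes tested. A positive change was seen for 14 of 18 cytosolic genes and 3 of 15 mitochondrial genes, against 57.4% of all genes. Among the 14, Mars, Qars and Vars had changes of 0.0079, 0.019 and 0.0075, far within their standard errors. These 3 turned negative with quantile normalization and median centring. Cytosolic changes spanned -0.43 to 1.13 and mitochondrial ones -0.75 to 0.63.

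Relative to the WT mean, the median cytosolic gene stood at 0.30, 0.23 and 0.23 on the 3 SRSF3HKO arrays, against 0.16, -0.06 and -0.10 on the WT arrays. The median mitochondrial gene stood at -0.39, -0.27 and -0.25 in SRSF3HKO, against 0.10, -0.14 and 0.06 in WT. Both sets of values were free of overlap between genotypes. The gap between the cytosolic and the mitochondrial median was 0.70, 0.50 and 0.47 in SRSF3HKO, against 0.07, 0.08 and -0.16 in WT. Over all genes the array medians were 0.11, 0.07 and 0.04 in SRSF3HKO, against 0.05, -0.10 and 0.05 in WT. Within the arrays that had Y-linked signal, 1 SRSF3HKO and 2 WT, the median change was 0.17 for cytosolic and -0.26 for mitochondrial genes. Within those that lacked it, 2 SRSF3HKO and 1 WT, it was 0.23 and -0.34.

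**Figure D1:**
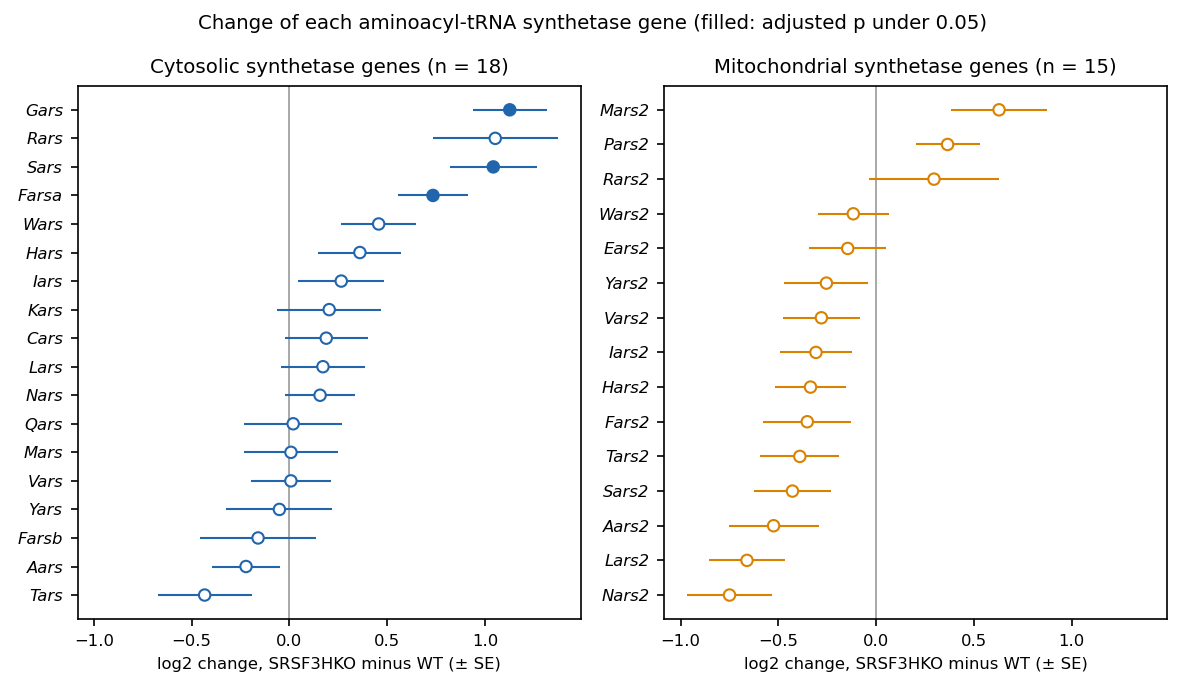
Change of each synthetase gene as log2 SRSF3HKO minus WT (points) with its standard error (whiskers), cytosolic genes left and mitochondrial genes right, with filled points for limma adjusted p under 0.05. The 3 filled points are Gars, Sars and Farsa. Of 18 cytosolic genes 14 lie right of 0, with Mars, Qars and Vars close to it, and 12 of 15 mitochondrial genes lie left of it.

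Gars encodes glycyl-tRNA synthetase, which serves the cytosol and, from the same gene, the mitochondria. Its level was 10.29, 10.27 and 10.06 in the SRSF3HKO arrays, against 9.29, 8.91 and 9.04 in the WT arrays, and the lowest SRSF3HKO array lay above the highest WT array. The change was 1.13 ± 0.19 (SE, n = 3 arrays per group; limma adjusted p = 0.0107). All 20 of its probe sets were higher, by 0.64 to 1.57, and 15 of them rose. In linear intensity, probe set 4688999 read 1741, 1434 and 1675 in SRSF3HKO, against 645, 622 and 498 in WT; it is shown because it had the lowest p of the gene. Without SRSF3HKO replicate 1 the change was 1.08 (limma adjusted p = 0.0244). Within arrays with Y-linked signal it was 0.96, and within those lacking it 1.24. Leaving out WT replicate 2 or 3 ended the call, at changes of 1.04 and 1.11 (limma adjusted p = 0.0617 and 0.0540).

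The promoter of Gars holds the core of the C/EBP-ATF response element, the DNA element through which ATF4 and its partners act on amino acid response genes. The stretches printed here lie before the annotated start in RefSeq (GRCm38.p6), and are those of the 3 synthetase genes with a match in that place, shown beside the classic response gene Asns because it is the reference case for the element. Each reads 5′ to 3′ on the strand of the gene, with the match in capitals.
Gars, chr6:55037941-55038000, plus strand: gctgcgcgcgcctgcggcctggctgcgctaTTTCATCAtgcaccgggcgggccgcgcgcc
Aars, chr8:111033700-111033767, plus strand: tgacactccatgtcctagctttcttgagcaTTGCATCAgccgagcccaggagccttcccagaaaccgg
Tars, chr15:11399659-11399703, minus strand: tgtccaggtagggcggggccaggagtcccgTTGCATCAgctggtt
Asns, chr6:7693210-7693262, minus strand: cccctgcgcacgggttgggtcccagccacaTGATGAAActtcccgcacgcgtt
The motif searched was TGATGNAA on both strands, in windows of 250 bases before to 50 after the start. In Gars, Aars and Tars the match reads on the opposite strand, and in Asns on the strand of the gene.

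The matches printed above occupy positions -30 to -23 from the start in Gars, -112 to -105 in Aars, -15 to -8 in Tars and -23 to -16 in Asns. Of the measured members, 24 had a promoter entry, 11 cytosolic and 13 mitochondrial. The letters were found in 5 of the 11 cytosolic genes (Aars, Gars, Iars, Tars and Yars; in Iars and Yars after the start, and in Aars also at positions 10 to 17) and in 0 of the 13 mitochondrial ones. Over all 27025 genes with an entry the share was 4.51%. In the list of amino acid response genes used further on, it was 7 of the 21 with an entry, not all of which are named. Of the 5 cytosolic genes with the letters, Gars was the only one that rose, and the windows of Sars and Farsa do not hold them. A match of letters is a description and no evidence of binding.

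Sars encodes cytosolic seryl-tRNA synthetase, whose enzyme also charges the selenocysteine tRNA. Its level was 10.22, 10.81 and 10.29 in SRSF3HKO, against 9.56, 9.44 and 9.19 in WT. The groups did not overlap, with SRSF3HKO replicate 2 the highest. The change was 1.04 ± 0.22 (limma adjusted p = 0.0234). All 26 tested probe sets were positive and 14 of them rose. The change was 1.15 without SRSF3HKO replicate 1 (limma adjusted p = 0.0266), 0.79 within arrays with Y-linked signal and 1.33 within those lacking it. Leaving out any 1 WT array ended the call (limma adjusted p = 0.0832, 0.0930 and 0.0991), as did a covariate for Y-linked signal (0.0532).

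Farsa and Farsb encode the alpha and beta subunits of cytosolic phenylalanyl-tRNA synthetase, which work as a tetramer. Farsa stood at 8.27, 8.36 and 8.46 in SRSF3HKO, against 7.69, 7.68 and 7.52 in WT, without overlap and with little spread in either group. Its change was 0.73 ± 0.18 (limma adjusted p = 0.0359), and 4 of its 18 tested probe sets rose. Farsb stood at 9.84, 8.80 and 9.85 in SRSF3HKO, against 9.80, 9.60 and 9.57 in WT, so that its groups overlapped and 1 SRSF3HKO array was far below the rest. Its change was -0.16 ± 0.30 (limma adjusted p = 0.766), and 15 of its 19 tested probe sets were negative. The change of Farsb turned to 0.19 without SRSF3HKO replicate 2 and to 0.015 with array weights, neither past the test. The change of Farsa was 0.78 without SRSF3HKO replicate 1, 0.78 within arrays with Y-linked signal and 0.79 within those lacking it. The Farsa call was the least stable of the 3. It ended when SRSF3HKO replicate 1 or 3 was left out (limma adjusted p = 0.0541 and 0.0839), when any 1 WT array was (0.126, 0.104 and 0.142), with median polish over probe sets (0.0657) and with the Y-linked covariate (0.0668).

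Rars, for arginine, had a change as large as that of Sars but did not pass the test. Its level was 10.61, 9.25 and 10.01 in SRSF3HKO, against 8.93, 8.85 and 8.93 in WT. The groups did not overlap, yet the SRSF3HKO arrays spread over 1.36 and the WT arrays over 0.08. The change was 1.05 ± 0.32 (limma adjusted p = 0.0685). All 16 tested probe sets were positive and 5 of them rose. Without SRSF3HKO replicate 2, the lowest SRSF3HKO array, the change was 1.40 (limma adjusted p = 0.00574), and with array weights it was 1.20 (0.00957). Without SRSF3HKO replicate 1, the highest, it was 0.73 (limma adjusted p = 0.123), and without replicate 3 or any 1 WT array it was 1.03 to 1.07 (0.133 to 0.200).

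Among the other cytosolic genes Wars, for tryptophan, had 8.37, 8.09 and 8.33 in SRSF3HKO, against 7.96, 7.82 and 7.64 in WT (change 0.46 ± 0.19, limma adjusted p = 0.158). Its groups did not overlap and all 14 of its probe sets were positive, though none passed. Hars, for histidine, also lay higher on every SRSF3HKO array, with a change of 0.36 (limma adjusted p = 0.298). Iars, Kars, Lars, Cars and Nars, for isoleucine, lysine, leucine, cysteine and asparagine, had changes of 0.27, 0.20, 0.17, 0.19 and 0.16, with overlapping groups. Mars, Qars, Vars and Yars, for methionine, glutamine, valine and tyrosine, lay within 0.06 of 0 on the log2 scale and turned sign under some alternatives. Aars, for alanine, was lower on all SRSF3HKO arrays, at 9.76, 9.92 and 9.74, against 10.19, 9.94 and 9.97 in WT (change -0.22, limma adjusted p = 0.446). Tars, for threonine, had the lowest cytosolic change, -0.43 ± 0.24 (limma adjusted p = 0.273), with 20 of 21 probe sets negative and overlapping groups.

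All 3 SRSF3HKO arrays lay above all 3 WT arrays for 6 of 18 cytosolic genes (33.3%), against 21.6% of all genes. They lay below for 1, Aars, against 14.0% of all genes. By structural class, the 3 genes that rose all belonged to class II, where 9 were measured (33.3%, median change 0.20). Of 9 class I genes 0 passed (median 0.17), against 6.85% of all genes higher. Rars, of class I and in the multi-synthetase complex, had a change of 1.05 and missed the threshold (limma adjusted p = 0.0685). The difference between the classes was not tested. Class I and class II synthetases differ in the fold of the catalytic domain. The 6 measured members of the multi-synthetase complex (Iars, Kars, Lars, Mars, Qars and Rars) all had positive changes, median 0.19. None rose, and the changes of Mars and Qars were close to 0. The 12 free enzymes had a median of 0.17, and all 3 that rose were among them.

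**Figure D2:**
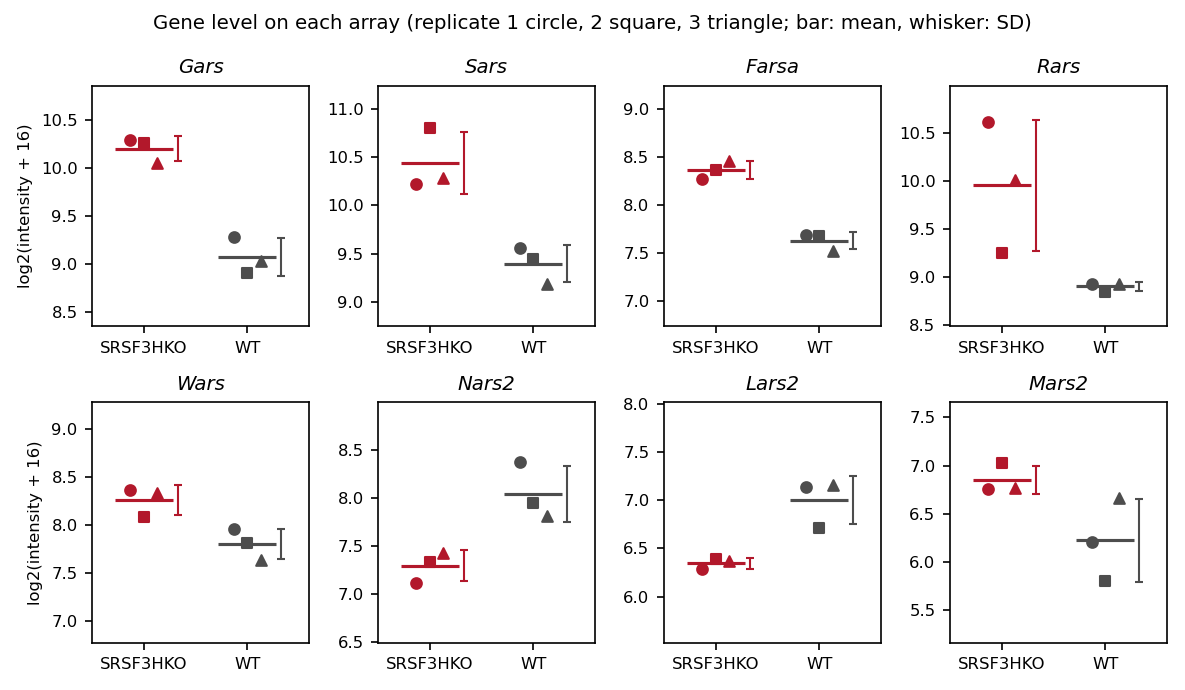
Level of 8 synthetase genes on each array as log2(intensity + 16), SRSF3HKO left of WT in every panel, with symbols for replicates, a bar for the mean and a whisker for the SD (n = 3). Gars, Sars, Farsa, Rars, Wars and Mars2 lie higher in every SRSF3HKO array and Nars2 and Lars2 lie lower in every SRSF3HKO array, with SRSF3HKO replicate 2 of Rars close to WT.

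The mitochondrial enzymes were in large part lower. Nars2, for asparagine, stood at 7.12, 7.34 and 7.43 in SRSF3HKO, against 8.37, 7.94 and 7.81 in WT, without overlap. Its change was -0.75 ± 0.22 (limma adjusted p = 0.0594), and all 16 tested probe sets were negative. Lars2, for leucine, stood at 6.28, 6.39 and 6.37 in SRSF3HKO, against 7.14, 6.72 and 7.16 in WT. Its groups did not overlap either, and the change was -0.66 ± 0.19 (limma adjusted p = 0.0619) with 23 of 24 tested probe sets negative. Both missed the threshold narrowly and crossed it under other scalings. Lars2 had an adjusted p of 0.0333 and Nars2 of 0.0440 with quantile normalization, and of 0.0348 and 0.0476 with each array centred on its median. Under these scalings 3 synthetase genes were called higher and 2 lower, in place of 3 and 0. Without each array in turn neither passed (adjusted p 0.0620 to 0.208 for Lars2 and 0.0521 to 0.214 for Nars2).

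Hars2, Iars2, Sars2 and Tars2, for histidine, isoleucine, serine and threonine, were also below WT on all SRSF3HKO arrays, with changes of -0.34, -0.31, -0.43 and -0.39 (limma adjusted p 0.189 to 0.308). With Nars2 and Lars2 this made 6 of 15 mitochondrial genes (40.0%) without overlap in that direction, against the 14.0% of all genes given above. Aars2, for alanine, had -0.52 with overlapping groups (limma adjusted p = 0.175). The changes of Ears2, Fars2, Vars2, Wars2 and Yars2, for glutamate, phenylalanine, valine, tryptophan and tyrosine, were -0.14, -0.35, -0.28, -0.12 and -0.25, also with overlap.

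The 3 mitochondrial genes with positive changes were Mars2, Pars2 and Rars2, for methionine, proline and arginine. Mars2 stood at 6.76, 7.02 and 6.77 in SRSF3HKO, against 6.20, 5.80 and 6.66 in WT (change 0.63, limma adjusted p = 0.131). It had 3 probe sets, whose own changes ran from -0.02 to 0.90 with 1 of them positive. Pars2 had a change of 0.37 (limma adjusted p = 0.182) and only 2 of 4 probe sets above their floor. Neither gene overlapped between genotypes. Rars2 stood at 8.14, 7.01 and 8.23 in SRSF3HKO, against 7.52, 7.27 and 7.69 in WT, and so showed the same low second SRSF3HKO array as Rars. Its change of 0.30 (limma adjusted p = 0.602) rested on single arrays, being 0.69 without replicate 2 (0.0456), 0.12 without replicate 1 (0.861) and 0.078 without replicate 3 (0.912).

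Enzymes that serve the same amino acid in the cytosol and the mitochondria could be set side by side in 14 pairs, from 14 cytosolic and 13 mitochondrial genes, as Fars2 stands against both Farsa and Farsb. In 12 of 14 pairs the cytosolic change lay above the mitochondrial one, with a median gap of 0.57. Pairs share arrays and Fars2, and are no replicates. They restate the gene changes given above, and no share over gene pairs in general was computed to set beside their counts.

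The gap was widest for serine, where Sars and Sars2 had changes of 1.04 and -0.43. Relative to the WT mean of each gene, Sars minus Sars2 was 1.31, 2.04 and 1.06 on the SRSF3HKO arrays, against 0.23, 0.05 and -0.29 on the WT arrays. Farsa minus Fars2 was 1.38, 0.77 and 1.11 in SRSF3HKO, against 0.048, -0.046 and -0.0028 in WT. Nars minus Nars2 was 1.26, 0.71 and 0.75 in SRSF3HKO, against -0.18, 0.02 and 0.16 in WT. The gaps of these pairs did not overlap between genotypes.

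The same absence of overlap was found for leucine, arginine, histidine, tryptophan, isoleucine and valine. Their gaps in change were 0.83, 0.76, 0.70, 0.57, 0.57 and 0.29. In all, 9 pairs were higher in SRSF3HKO without overlap and 0 lower, a count for which no background share was computed. Alanine (0.30), tyrosine (0.20) and Farsb against Fars2 (0.19) had the cytosolic enzyme above with overlap. Threonine had almost no gap (-0.04), since Tars and Tars2 were lower by similar amounts. Methionine ran the other way, at -0.62 with overlap, through the positive change of Mars2, which did not pass.

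**Figure D3:**
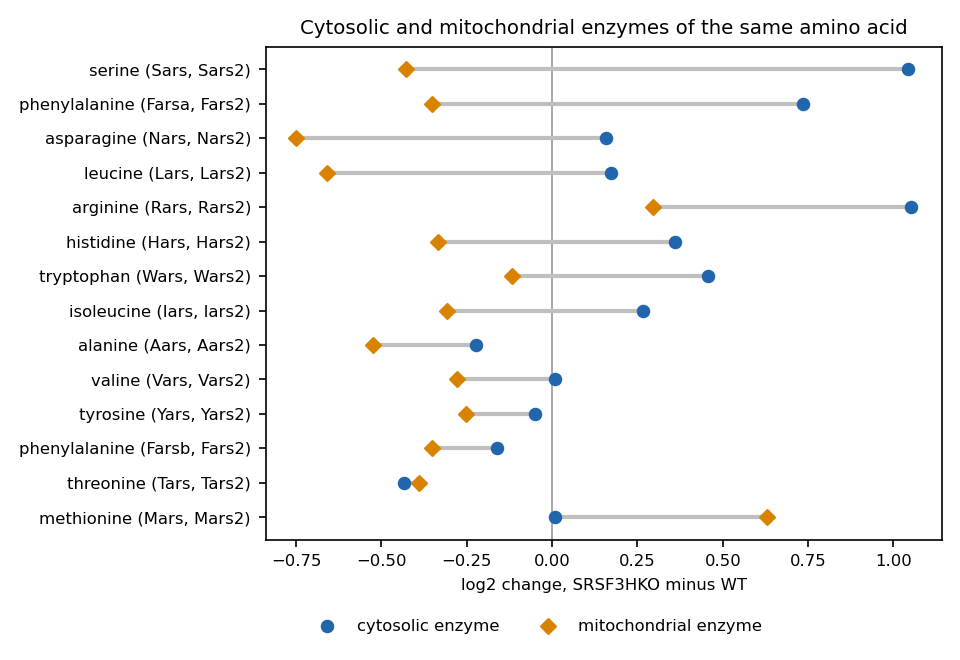
Change (log2 SRSF3HKO minus WT) of the cytosolic enzyme (circles) and the mitochondrial enzyme (diamonds) of each amino acid, ordered by the gap between them, with phenylalanine in 2 rows for the subunits Farsa and Farsb. The circle lies right of the diamond in 12 of 14 pairs, and only threonine and methionine differ.

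Single probe sets were tested as well. Of 401 tested cytosolic probe sets 39 rose (9.73%) and 0 fell, against a background of 4.80% of all 155779 tested probe sets higher and 4.39% lower. Of 235 tested mitochondrial ones 0 rose and 6 fell (2.55%). Positive changes were seen in 69.3% of the cytosolic and 20.9% of the mitochondrial probe sets, against 54.6% of all. Probe sets of 1 gene are not independent of each other. The 39 became 7, 9 and 10 when WT replicate 1, 2 or 3 was left out, 74 and 22 when SRSF3HKO replicate 2 or 3 was, and 20 with the Y-linked covariate, while the 6 became 0 when any 1 WT array or SRSF3HKO replicate 3 was left out, 3 without SRSF3HKO replicate 1 and 14 without replicate 2.

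The rises came from few genes, with 15 probe sets of Gars, 14 of Sars, 5 of Rars, 4 of Farsa and 1 of 23 tested in Cars. The 6 that fell were 3 of 12 in Sars2, 2 of 24 in Lars2 and 1 of 16 in Nars2. In linear intensity, Sars2 probe set 4989640 read 62.9, 60.0 and 43.3 in SRSF3HKO, against 144, 119 and 142 in WT (limma adjusted p = 0.0269). Nars2 probe set 5373204 read 142, 183 and 187 in SRSF3HKO, against 468, 346 and 285 in WT (limma adjusted p = 0.0395). Both were lower on every SRSF3HKO array.

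**Figure D4:**
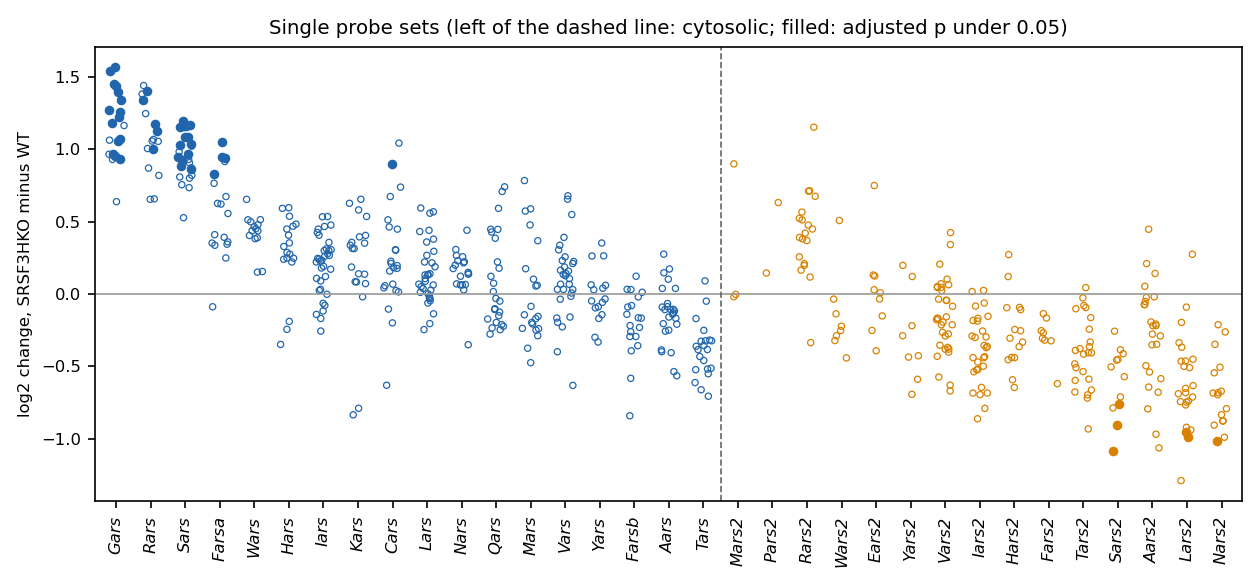
Change (log2 SRSF3HKO minus WT) of each of the 636 tested probe sets by gene, cytosolic genes left of the dashed line and mitochondrial genes right of it, each ordered by the change of the gene, with filled points for limma adjusted p under 0.05. All tested probe sets of Gars, Sars, Rars and Wars lie above 0 and all of Nars2, Sars2 and Fars2 lie below it.

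SRSF3 acts on splicing, so the use of single exons was compared too, as a probe set's change set against that of the rest of its gene. By limma's diffSplice 0 of 634 synthetase probe sets differed in usage, against a background of 0.664% of 140950 probe sets. At an unadjusted p under 0.05 there were 29 (4.57%), against 6.71% of all, and the per-array splicing index called 0 as well. The nearest to the threshold were 2 probe sets of Kars, whose gene supplies lysyl-tRNA synthetase to both compartments. Probe set 4478634 read 235, 221 and 275 in SRSF3HKO, against 467, 455 and 376 in WT, without overlap, while the gene level of Kars had a positive change. Its usage change was -1.04 (diffSplice adjusted p = 0.0734, splicing index 0.202). Probe set 4433485 read 239, 91.9 and 148 in SRSF3HKO, against 295, 273 and 269 in WT, with a usage change of -1.09 (diffSplice adjusted p = 0.0514, splicing index 0.188). Usage calls among the synthetases reached 15 without SRSF3HKO replicate 2, 3 with a pseudocount of 64, and 2 with a filter at the median or without SRSF3HKO replicate 1.

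SRSF3HKO arrays spread more than WT arrays over the genes in general, and the cytosolic share was close to that background. The SD was larger in SRSF3HKO for 14 of 18 cytosolic genes (77.8%) and 6 of 15 mitochondrial genes (40.0%), against 69.0% of all genes. SRSF3HKO replicate 2 was set against the mean of replicates 1 and 3 after the values had been seen. It lay lower by over 0.5 for 5 of the 18 cytosolic genes and higher by over 0.5 for 4, against 20.3% and 15.1% of all genes. Rars was 1.06 lower there, Farsb 1.04, Kars 0.85, Iars and Tars 0.57 each and Lars 0.45, whereas Yars was higher by 0.80, Qars by 0.72, Sars by 0.56 and Mars by 0.53.

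Within the multi-synthetase complex the second array was thus lowest for Rars, Kars, Iars and Lars, and highest for Qars and Mars. It was also lowest for the 3 scaffold genes. Eef1e1, which encodes the scaffold protein also called AIMP3, stood at 10.21, 8.50 and 10.06 in SRSF3HKO, against 8.82, 8.49 and 8.57 in WT. Aimp1 stood at 9.25, 8.33 and 9.03 in SRSF3HKO, against 7.84, 7.94 and 8.004 in WT. Aimp2 stood at 8.57, 7.81 and 8.51 in SRSF3HKO, against 8.16, 8.20 and 8.06 in WT. Aimp1 alone was free of overlap, and its change of 0.94 ± 0.26 missed the threshold (limma adjusted p = 0.0516). The changes of Eef1e1 and Aimp2 were 0.96 and 0.16 (limma adjusted p = 0.173 and 0.715). Without SRSF3HKO replicate 2 the changes of Aimp1 and Eef1e1 were 1.22 and 1.51 and passed (limma adjusted p = 0.00494 and 0.00273). Over all genes the second SRSF3HKO array was the lowest of the 3 for 39.1% and the highest for 37.2%.

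**Figure D5:**
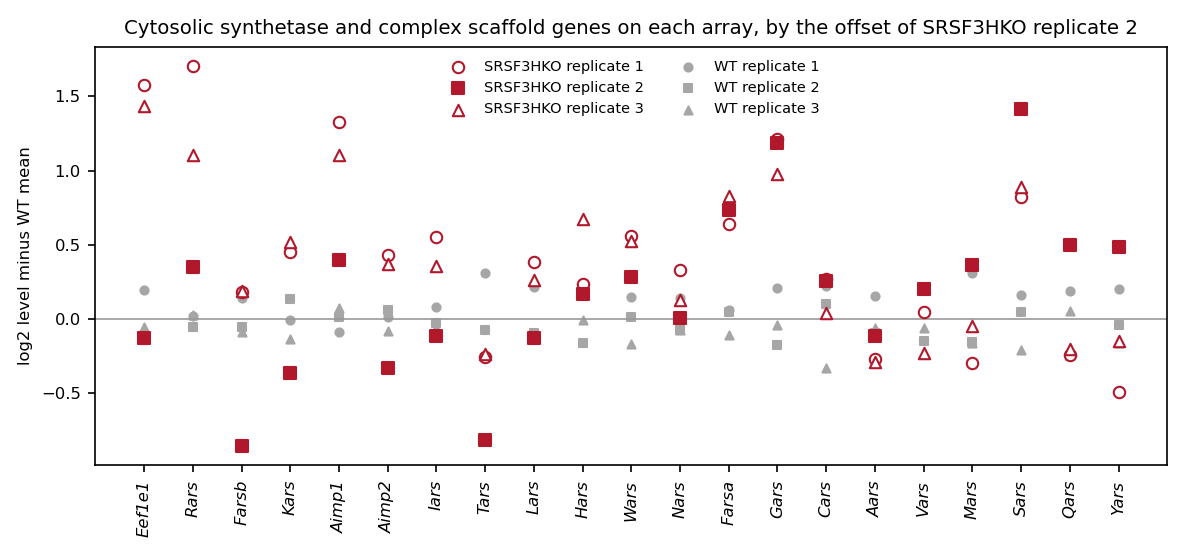
Level of the 18 cytosolic synthetase genes and 3 complex scaffold genes minus the WT mean (log2) on each array, ordered by how far SRSF3HKO replicate 2 (filled squares) lay from replicates 1 and 3 (open symbols), with WT arrays in grey. Replicate 2 lies 1.63 below the other SRSF3HKO arrays for Eef1e1 and 0.80 above them for Yars.

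Other genes that handle tRNA or charged tRNA were read from lists named by function. Trnt1, which adds the CCA end that every tRNA needs before it can be charged, rose. It stood at 8.15, 8.35 and 8.30 in SRSF3HKO, against 6.93, 6.65 and 6.92 in WT, wide of any overlap. Its change was 1.43 ± 0.19 (limma adjusted p = 0.00431), and it passed in all 18 alternatives, at 1.13 to 1.57. It was 1.49 without SRSF3HKO replicate 1, 1.51 within arrays with Y-linked signal and 1.33 within those lacking it. Elac2, which trims the tail of tRNA precursors, and Ssb, which binds them, had 0.27 and 0.41 and did not pass. Xpot was not analysed here.

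Tarsl2, a paralogue of Tars, was the 1 gene that fell among 6 tested in a list of synthetase-related genes (16.7%, against 5.03% of all genes). It stood at 6.45, 5.78 and 6.39 in SRSF3HKO, against 7.33, 7.07 and 7.34 in WT (change -1.04 ± 0.23, limma adjusted p = 0.0263). None of its arrays overlapped. Leaving out any 1 WT array ended the call (limma adjusted p = 0.110, 0.0797 and 0.102), as did median polish over probe sets (0.0531) and the Y-linked covariate (0.0619). The change was -1.16 without SRSF3HKO replicate 1 (limma adjusted p = 0.0251), -0.81 within arrays with Y-linked signal and -1.22 within those lacking it. The other 5 tested were Sepsecs and Pstk, which convert seryl-tRNA into selenocysteinyl-tRNA, and Prorsd1, Dtd1 and Dtd2, which edit or clear wrongly charged tRNA or resemble such enzymes. They had changes of -0.58 to 0.41 and none passed. Aarsd1 was not analysed here.

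In mitochondria, glutaminyl-tRNA is made by an amidotransferase of the subunits encoded by Qrsl1, Gatb and Gatc, and initiator methionyl-tRNA is formylated by the product of Mtfmt. None of the 4 passed. Gatb was lower on every SRSF3HKO array (-0.51, limma adjusted p = 0.158), Mtfmt higher on every one (0.43, 0.141), and Qrsl1 had 0.42 with overlap. Of the 6 elongation factor genes, whose products deliver charged tRNA to the ribosome or recycle that factor, none passed. Eef1d came nearest with 0.76 (limma adjusted p = 0.0563), and its groups did not overlap, whereas the mitochondrial factors Tufm and Tsfm had -0.39 and -0.18, which turned to 0.015 and 0.26 without SRSF3HKO replicate 2. Eef1d passed without that array, at 0.94 (limma adjusted p = 0.0100). Ptrh2, a peptidyl-tRNA hydrolase, did not pass.

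Of 25 amino acid response genes 23 were tested, 3 rose (13.04%) and 1 fell (4.35%), against 6.85% and 5.03% of all genes. A positive change was seen for 20 (87.0%), against 57.4% of all genes, and the median was 0.52 against 0.08. Asns, which makes asparagine, stood at 9.90, 10.44 and 8.92 in SRSF3HKO, against 5.94, 5.64 and 5.60 in WT. Its change was 4.03 ± 0.36 (limma adjusted p = 0.00108). Ddit3, which encodes the stress factor CHOP, rose by 1.24 (0.0172) and Ddit4, an inhibitor of mTORC1, by 2.18 (0.0412), both limma adjusted p. The Asns call held in all 18 alternatives, while the calls of Ddit3 and Ddit4 each ended when any 1 WT array was left out (limma adjusted p 0.0733 to 0.0849 for Ddit3 and 0.114 to 0.146 for Ddit4). That of Ddit4 also ended without SRSF3HKO replicate 1 (limma adjusted p = 0.0602), with the Y-linked covariate (0.0593), a pseudocount of 64 (0.0562) and the mean or median polish over probe sets (0.0637 and 0.0501). Without SRSF3HKO replicate 1 the changes of Asns, Ddit3 and Ddit4 were 3.95, 1.28 and 2.22. Within arrays with Y-linked signal they were 3.13, 1.68 and 0.95, and within those lacking it 4.57, 1.04 and 2.73. Atf5, a transcription factor of the same response, fell, with 8.02, 7.47 and 7.81 in SRSF3HKO, against 9.36, 9.38 and 9.34 in WT (change -1.59, limma adjusted p = 0.00383), a call that held in all 18 alternatives. Its change was -1.72 without SRSF3HKO replicate 1, -1.56 within arrays with Y-linked signal and -1.60 within those lacking it. Aldh1l2 and Slc7a11 lay below the floor.

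Atf4 itself stood at 9.48, 10.06 and 9.61 in SRSF3HKO, against 9.44, 9.01 and 9.44 in WT. The groups did not overlap, and the change of 0.42 did not pass (limma adjusted p = 0.262). Atf4 is known to be controlled at translation, which RNA arrays do not measure. Of 5 tested genes for eIF2alpha kinases and phosphatase subunits 1 rose (20.0%), against 6.85% of all genes. It was Ppp1r15a, the stress-induced phosphatase subunit GADD34, with a change of 1.57 (limma adjusted p = 0.0266). The call ended when any 1 WT array was left out (limma adjusted p = 0.0890, 0.114 and 0.0942). It also ended with the mean or median polish over probe sets (0.0564 and 0.0897) and with the Y-linked covariate (0.0527). The change was 1.65 without SRSF3HKO replicate 1 (limma adjusted p = 0.0354), 0.90 within arrays with Y-linked signal and 1.92 within those lacking it. Eif2ak4, which encodes the kinase GCN2 that senses uncharged tRNA, had a change of 0.47 with no overlap (limma adjusted p = 0.127). Eif2ak1 was not analysed here.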

How the data were processed

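Liver RNA of 3 SRSF3HKO and 3 WT samples was measured on 1 exon array each. The deposited values are linear intensities of 229581 core exon probe sets, which the authors made with PLIER in Affymetrix Expression Console, per the submitters' processing notes; versions, background step and genome build are not given in the sources used here. The labels gave the genotype, and replicates were numbered in sample order. The array annotation gave 208397 probe sets 1 gene, 3965 several and 17219 none, and those with 1 gene entered the gene levels and the test of exon usage. Another 3 probe sets shared by Aars and a further gene were left out.

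Intensities were transformed as log2(value + 16), which understates changes of dim genes, and each gene was given the median of its probe sets. A gene or probe set was tested if its mean of 6 arrays exceeded the 90th percentile of genes for taste, vomeronasal and olfactory receptors (1046 genes, 5.35; 3004 probe sets, 5.67). This left 11711 genes and 155779 probe sets. SRSF3HKO was compared with WT by limma 3.58.1 in R 4.3.3 (lmFit, eBayes with trend, Benjamini-Hochberg, threshold 0.05), and exon usage by limma's diffSplice in 12140 genes with at least 3 tested probe sets. The pipeline was tested on simulated data, with noise taken from the spread of the WT arrays for both groups. That test thus did not cover the larger spread of the SRSF3HKO arrays. Files were read with the package data.table (version 1.17.8). Promoters and figures used matplotlib 3.10.9, numpy 2.4.6 and pandas 2.3.3 under Python 3.11.15.

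The synthetases and the other lists were chosen with earlier results of these data known, so no test was made over a list. All listed synthetase genes are named, and genes of the other lists where they passed the test or belong to the complex. The remaining genes named here were picked after their values were seen. Alternatives changed the scale (pseudocount 1 or 64, median centring, quantile normalization), the gene summary (mean, median polish), the filter (none, at the median), the fit (array weights, robust eBayes, no trend, a covariate for Y-linked signal from Eif2s3y and Kdm5d), the usage test (splicing index) and the arrays (each left out in turn).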

Additional observations from a re-analysis of the deposited data

How the results depend on the processing

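The median cytosolic change stayed positive, the median mitochondrial change negative and the gap between them positive in every alternative in which they were computed. Median centring, which shifts all genes of an array alike, could not move the gap. Nor could dropping the filter, as all measured synthetase genes had been tested already. The cytosolic median was 0.12 with quantile normalization and 0.13 with median centring, and 0.11 to 0.28 when each array was left out in turn. The mitochondrial median ranged from -0.37 to -0.23 and the gap from 0.38 to 0.60. The number of cytosolic genes called higher, 3, became 1 with the Y-linked covariate and 0 to 4 without each array in turn, with 0 reached without WT replicate 2 or 3. Mitochondrial genes called lower, 0, became 2 with quantile normalization, median centring and array weights, and 1 with the mean, median polish or a filter at the median; leaving out arrays gave 0 to 1 called higher. All genes called, 1391, became 2157 with array weights and 732 with the Y-linked covariate, and 244 to 2155 without each array in turn (244, 274 and 434 when WT replicate 1, 2 or 3 was left out, 2155 when SRSF3HKO replicate 2 was). Synthetase probe sets called higher, 39, became 63 with array weights, 20 with the Y-linked covariate and 7 to 74 without each array in turn. Those called lower, 6, became 19, 1, 0 with no filter, and 0 to 14. Usage calls, 0, became 3 with a pseudocount of 64, 2 with a filter at the median and 0 to 15 without each array in turn. The cause of these differences was not tested.

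Only genes that had not passed the test changed sign. Mars had -0.064, -0.045, -0.077 and -0.14 with quantile normalization, median centring, median polish and array weights, and -0.17 to 0.16 without each array in turn. Qars had -0.042, -0.034, -0.020 and -0.18 under the same 4 settings, -0.032 with the Y-linked covariate and -0.22 to 0.15 without each array. Vars had -0.057, -0.046 and -0.12 with quantile normalization, median centring and array weights, -0.025 with the Y-linked covariate and -0.091 to 0.13 without each array. Farsb had 0.015 and Tsfm 0.073 with array weights. Without each array in turn Farsb spanned -0.34 to 0.19, Wars2 -0.21 to 0.027, Yars -0.32 to 0.17, Srsf3 -0.022 to 0.58, Tufm -0.63 to 0.015 and Tsfm -0.41 to 0.26. The genes followed under the 18 settings gave 1060 gene values. Of these, 944 kept direction and side of the threshold, 62 lost a call, 23 gained one and 31 changed sign. Only a gene that had passed could lose a call, and most genes followed had not passed. The 944 thus do not measure how stable the calls were. Among the synthetases the calls of Farsa, Sars and Gars ended in 7, 4 and 2 of the 18 settings. Some genes named above, such as Adgre1, Sepsecs, Dtd2, Gatc and Ptrh2, were not among those followed.

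No paired analysis was possible because the labels give no replicate numbers shared between the groups. Pars2 and Mars2 rest on few probe sets near the floor, and the number of arrays, 3 a group, limits the precision throughout.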
